A study of Mus musculus with 54 samples.

Results

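A set of 31 genes of the unfolded protein response and the integrated stress response was followed through liver, kidney and quadriceps of corylin-fed, old and young mice of both sexes. The members were picked by symbol: 32 of the 55471 rows of each count table carry 1 of the 31 symbols, and the second Ddit3 row held 0 counts in every library. They fall into 14 chaperones and folding enzymes of the endoplasmic reticulum (ER), 6 genes of ER-associated degradation and translocation, 6 transcription regulators and 5 targets of the integrated stress response. All 31 passed the filter on low counts in liver and in kidney, and 30 in quadriceps, where Derl3, with 46 counts over all libraries, did not.

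All mice were C57BL/6J, an inbred laboratory strain, and each group was kept apart by sex. Corylin mice had reached 130 weeks of age on a diet supplemented with corylin, which is a flavonoid found in Psoralea corylifolia and whose dose and starting age the labels do not give. Old mice had the same age, 130 weeks, on the control diet. Young mice were sampled at 50 weeks, with no diet of their own in the labels. The 53 libraries came from 18 animals, with 3 libraries per tissue, sex and condition and 2 (replicates 2 and 3) in liver of corylin males, and library totals ran from 8687606 to 23190258 counts with a median of 15488178. The tissue labels fitted the marker levels, with Alb at 34325 to 87627 CPM (counts scaled by library size) in liver, Umod at 3381 to 7447 CPM in kidney and Ckm at 8094 to 17358 CPM in quadriceps. The young library names carry only the letter B and the R letter occurs only among aged mice, in 12 libraries, so that letter is partly confounded with age. The labels do not give its meaning. In each corylin and old group replicate 3 is the R library, so old female 3 is the R animal among the old females.

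Proteins that enter the secretory pathway fold in the ER with the help of chaperones such as Hspa5 (BiP) and Hsp90b1 (GRP94). When unfolded proteins build up, the sensors ATF6, IRE1 and PERK raise chaperones, disulfide isomerases and degradation factors, IRE1 through splicing of Xbp1 mRNA, and PERK slows translation by phosphorylating eIF2 alpha. Other eIF2 alpha kinases sense amino acid shortage or haem shortage, and all of them lead to the transcription factor ATF4 and its targets, among them Ddit3 (CHOP), Trib3, Chac1 and Asns. Liver, which secretes most plasma proteins, has an extensive ER, and the gene counts here do not separate spliced from unspliced Xbp1.

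The ER stress element, the DNA motif through which ATF6 and NF-Y act, stands in the promoters of several members and is shown first for the 5 of its carriers that rose in old female liver. RefSeq promoter windows of 300 bases (250 before to 50 after the gene start, build GRCm38.p6) matched 28 members, and Atf6, Hyou1 and Manf had no entry. In the lines below, capitals mark the element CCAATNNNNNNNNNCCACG on either strand, with 20 bases on each side, written 5′ to 3′ along the gene's strand. Hspa5 is at chr2:34772005-34772063 (plus strand), Pdia6 at chr12:17266471-17266529 (plus), Dnajc3 at chr14:118937807-118937865 (plus), Creld2 at chr15:88819500-88819558 (plus) and Calr at chr8:84847055-84847113 (minus). In Creld2 and Calr the element runs on the opposite strand and so begins with CGTGG.
Hspa5: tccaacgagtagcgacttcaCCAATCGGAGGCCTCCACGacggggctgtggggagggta
Pdia6: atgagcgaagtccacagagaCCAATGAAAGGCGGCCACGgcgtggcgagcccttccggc
Dnajc3: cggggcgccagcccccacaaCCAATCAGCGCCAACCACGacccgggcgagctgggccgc
Creld2: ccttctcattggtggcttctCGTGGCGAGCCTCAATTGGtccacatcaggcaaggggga
Calr: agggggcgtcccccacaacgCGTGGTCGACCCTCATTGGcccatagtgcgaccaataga
The element was found in 9 of the 28 member promoters (32.1%), against 39 of all 32851 promoter windows (0.119%), a count that includes the members. It stood in 7 of the 12 chaperone promoters (also Hsp90b1, with 2 copies, and Canx) and in 2 of 6 degradation promoters (Derl3 and Syvn1), and in 0 of 5 regulators and 0 of 5 targets. Its CCACG end, which overlaps the whole element, was found on either strand in 23 of 28 members (82.1%) and in 32.8% of all windows. The UPR element TGACGTGG was found in 0 of 28 members and in 0.676% of all windows.

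Another motif searched was the core of the amino acid response element, TGATGNAA, which ATF4 binds. It was found on either strand in 5 of 28 member promoters (17.9%), those of Asns, Chac1, Herpud1, Nupr1 and Trib3, against 3.97% of all windows. By role, it stood in 3 of 5 targets, 1 of 5 regulators, 1 of 6 degradation genes and 0 of 12 chaperones. Those of Asns, at chr6:7693205-7693252 (minus strand), and of Chac1, at chr2:119351029-119351076 (plus), are shown because these genes rose in old female kidney, and the Chac1 core runs on the opposite strand.
Asns: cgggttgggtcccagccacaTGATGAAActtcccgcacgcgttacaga
Chac1: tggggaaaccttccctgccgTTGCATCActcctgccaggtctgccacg

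Levels were compared between genes as TPM, the authors' values scaled by transcript length and library size, over the 6 young libraries of a tissue. Atf5, an ATF4-related transcription factor, had a median of 787 TPM (range 647 to 917) in young liver, against 17.2 TPM (16 to 29.8) in kidney and 44.5 TPM (37.3 to 71.6) in quadriceps. Chac1, which breaks down glutathione, had 186 TPM (137 to 256) in quadriceps and medians of 1.86 TPM in liver and 1.41 TPM in kidney. Sesn2, a stress-induced inhibitor of mTORC1 signalling, had 64.2 TPM (51.2 to 95.3) in kidney, against 8.64 TPM (7.32 to 12.3) in liver and 4.19 TPM in quadriceps. These 3 genes thus had their high level in 3 different tissues, and none of these ranges overlapped that of the next tissue.

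Chaperones other than Dnajb9 had lower median levels in quadriceps than in liver or kidney. Dnajb9 went the other way, with medians of 49.5, 62.6 and 74.6 TPM in young liver, kidney and quadriceps. Hspa5 had medians of 330, 245 and 140 TPM in young liver, kidney and quadriceps, and Calr, a lectin chaperone for glycoproteins, had 439, 439 and 127 TPM. Pdia4, a disulfide isomerase, had 114, 90.8 and 6.99 TPM. Atf4 mRNA was within a narrower span, with 125 TPM in liver, 130 TPM in kidney and 227 TPM in quadriceps. Among the low members were Derl3, a degradation factor, at 0.981, 1.97 and 0.176 TPM, and Asns, asparagine synthetase, at 1.94 TPM in liver with a range of 0.13 to 6.36.

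**Figure D1:**
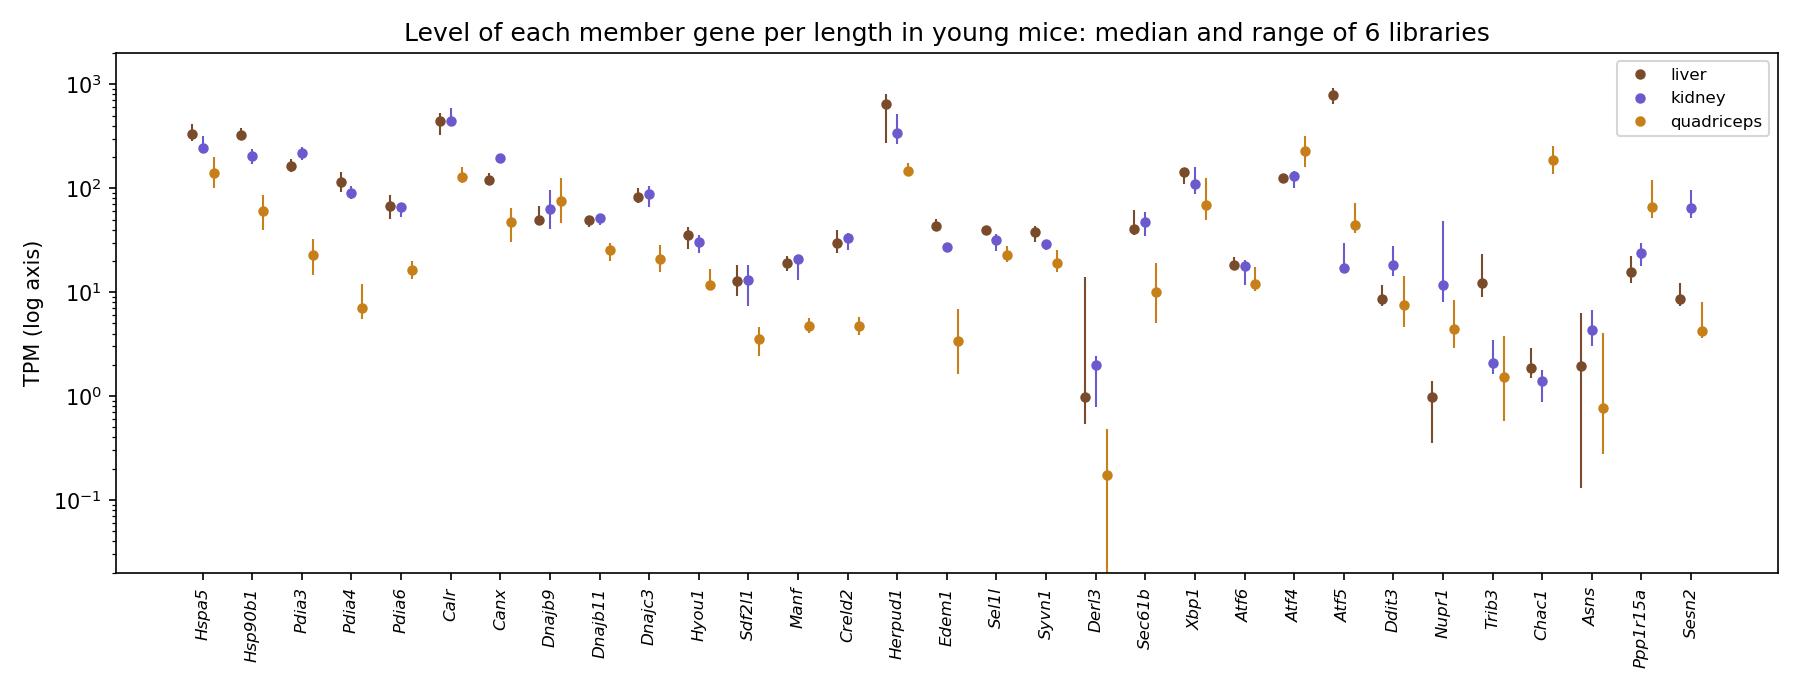
Levels of the 31 members in young mice, as TPM on a log axis: points are medians and lines the range of the 6 young libraries of each tissue. Atf5 stands out in liver (median 787 TPM), Sesn2 in kidney (64.2) and Chac1 in quadriceps (186), and a line that reaches the axis floor stands for a lowest value of 0.

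The heatmap sets every library against the young libraries of its sex and tissue. The median difference of the members was highest in the livers of old females 2 and 1 (1.36 and 0.93) and in the quadriceps of old female 3 (0.92).

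**Figure D2:**
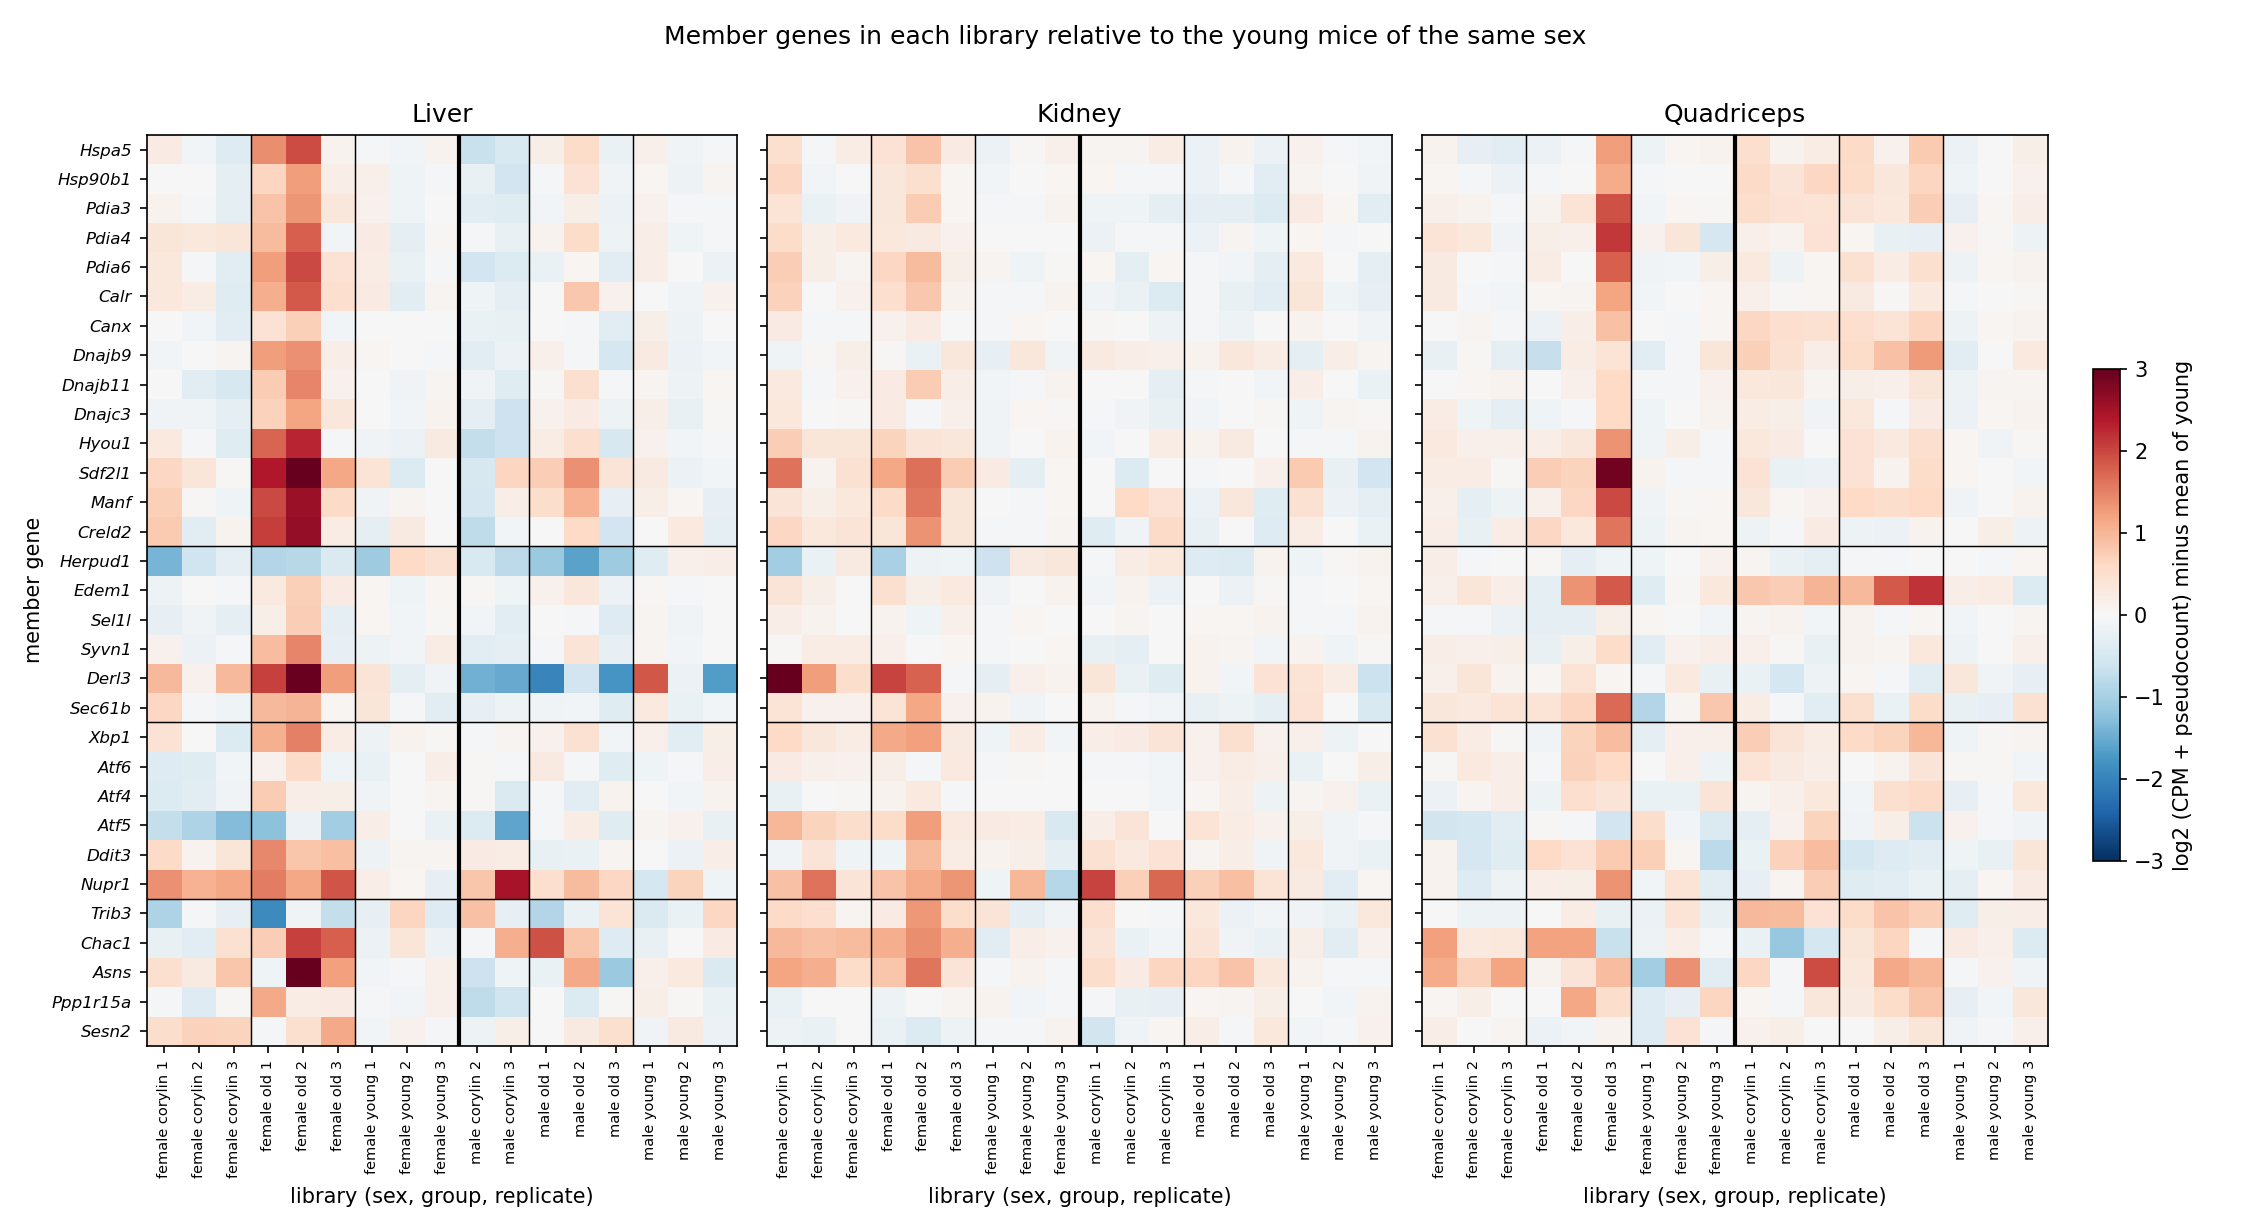
Difference in log2(CPM + 0.5) of each member (rows, by role) in each library (columns, by tissue, sex and condition) from the mean of the young libraries of the same sex and tissue, with colours limited at 3 in either direction. The chaperone rows are highest in liver of old females 1 and 2 and in quadriceps of old female 3.

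In female liver, 15 of 31 members rose in old mice relative to young mice and 0 fell. Across all 15158 genes tested the share called was 9.27% (840 higher and 565 lower), and the median log2 fold change was 0.89 over the members and -0.01 over all genes. The rise was densest among the chaperones and folding enzymes, where 11 of 14 passed, with a median of 1.15 and a range of 0.39 to 2.77 over the 14. Of the transcription regulators 3 of 6 rose (Ddit3, Xbp1 and Nupr1), of the integrated stress response targets 1 of 5 (Asns), and of the degradation and translocation genes 0 of 6. All tests are edgeR quasi-likelihood F tests with Benjamini-Hochberg adjustment over all genes and a threshold of 0.05, and changes are log2 fold changes with their standard error (SE).

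Ddit3 encodes CHOP, the transcription factor that links prolonged ER stress to cell death. It was at 16.2, 10.5 and 11 CPM in old female livers, against 5.05, 5.98 and 5.99 CPM in young female livers. Each old library lay above every young one, with old female 1 the highest. The difference was 1.15 ± 0.2 (adjusted p = 0.00684, edgeR), and it passed under all 12 alternative settings, which gave adjusted p from 1.03e-05 to 0.0304.

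Sdf2l1, an ER protein that works with Hspa5 and its DnaJ partners, had 34, 78.6 and 14 CPM in old female livers, against 8.12, 4.39 and 5.99 CPM in young ones. The groups did not overlap, although old female 3 was well below the other 2. The difference of 2.77 ± 0.52 (adjusted p = 0.0101, edgeR) was the largest of the chaperone group. It passed in 11 of 12 alternatives (adjusted p 2.73e-06 to 0.0529), the exception being the fit without young female 2.

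Pdia6, a disulfide isomerase that also attenuates IRE1 signalling, was at 220, 363 and 124 CPM in old female livers and at 108, 80.4 and 90.1 CPM in young ones. Manf, an ER-resident protein that is secreted under stress, was at 112, 171 and 41.5 CPM in old livers and at 26, 29.5 and 28.2 CPM in young ones. Neither gene overlapped between the groups, and in both the order of the old animals was the same as for Sdf2l1. Pdia6 changed by 1.34 ± 0.29 (adjusted p = 0.0177) and Manf by 1.95 ± 0.43 (adjusted p = 0.0203). Pdia6 passed in 9 of 12 alternatives (adjusted p 0.000295 to 0.0805), not without old female 2, young female 2 or young female 3, and Manf in 7 of 12 (adjusted p 0.000166 to 0.0737), not without old female 2 or any of the 3 young females.

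The next by adjusted p were Pdia3 (ERp57, the isomerase that partners calreticulin) at 0.89 ± 0.2, Dnajb9 (ERdj4) at 1.04 ± 0.24, Dnajc3 (p58IPK, a co-chaperone that restrains PERK) at 0.78 ± 0.19 and Nupr1, a small stress-induced chromatin protein, at 1.91 ± 0.47. Their adjusted p in edgeR ran from 0.0208 to 0.0261. Nupr1 was low, at 4.25, 3.18 and 5.63 CPM in old livers and 1.39, 1.21 and 0.882 CPM in young ones, without overlap. Calr, Hspa5, Creld2, Hyou1, Xbp1, Dnajb11 and Asns also passed.

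Hspa5 itself was at 1426, 2090 and 579 CPM in old female livers and at 523, 512 and 583 CPM in young ones. Old females 1 and 2 stood far above the young, while old female 3 lay inside the young range. Creld2 (68.1, 99.3 and 18.3 CPM in old, 12.9, 19 and 15.7 CPM in young) and Hyou1, an Hsp70-like chaperone (304, 441 and 87.3 CPM in old, 83.8, 79.8 and 108 CPM in young), had the same shape. Their differences were 1.34 ± 0.34 for Hspa5, 1.96 ± 0.49 for Creld2 and 1.61 ± 0.42 for Hyou1, with adjusted p of 0.0281, 0.0295 and 0.0317. Asns passed with 4.30 ± 1.23 (adjusted p = 0.0444) on values of 0.127, 10.5 and 1.09 CPM in old livers and 0.146, 0.151 and 0.252 CPM in young ones. The Asns groups overlapped, and without old female 2 its difference was 1.64 and did not pass.

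Among members that did not pass, those with the highest mean CPM of each role were Hsp90b1 at 0.76 ± 0.24 (861, 1306 and 626 CPM in old, 614, 501 and 535 CPM in young), Herpud1, an ER membrane protein of the degradation complex, at -0.87 ± 0.36, Atf5 at -0.75 ± 0.31 and Ppp1r15a (GADD34, which helps to remove the phosphate from eIF2 alpha) at 0.61. Their adjusted p were 0.0552, 0.133, 0.128 and 0.0899. Herpud1 and Atf5 thus had negative differences where 11 chaperones rose. Herpud1 was at 288, 300 and 396 CPM in old female livers and at 255, 809 and 733 CPM in young ones, so young female 1 lay below the other young animals and below all old ones. Atf4 mRNA was at 208, 142 and 138 CPM in old livers and at 115, 124 and 130 CPM in young ones, a difference of 0.41 that did not pass (adjusted p = 0.145).

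The size of the count depended on the animals. It was 3 of 31 without old female 2, 9 without old female 1 and 23 without old female 3, and 5, 1 and 2 without young females 1, 2 and 3. The members' median was 1.25 without old female 3. That animal is the R animal of the old females, so its difference from the others cannot be told apart from the letter. The share of all genes called in the fits with a library left out is not given here. In single libraries the median of the members' log2 difference from the young mean was 0.93 in old female 1, 1.36 in old female 2 and 0.22 in old female 3. Still, 25, 28 and 19 members lay above all 3 young libraries in these 3 animals, where 34.9%, 35.6% and 34.0% of all genes did, and 3, 0 and 5 lay below all of them, where 35.8%, 36.9% and 35.2% of all genes did.

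The summed level of the 14 chaperones gives the same picture as 1 value per animal. It was 5546, 8398 and 3158 CPM in old female livers and 2875, 2430 and 2765 CPM in young female livers, and 3014, 2714 and 2200 CPM in corylin female livers. Every old female lay above every young and every corylin female, and old female 3 by a narrow margin. The R library, replicate 3, had the lowest liver sum in each aged group. In old males it had 2761 CPM, against 3137 and 4189 CPM, and in corylin males 2306 CPM, against 2417 CPM. This did not hold in every tissue: in old quadriceps the R library had the highest sum, with 2110 CPM in females and 1136 CPM in males. In kidney of corylin females replicate 2 was lowest. The 13 cytosolic heat shock genes, the counterpart of these chaperones outside the ER, summed to 4524 to 4758 CPM in old and 3183 to 4290 CPM in young female livers, and 0 of 13 passed.

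**Figure D3:**
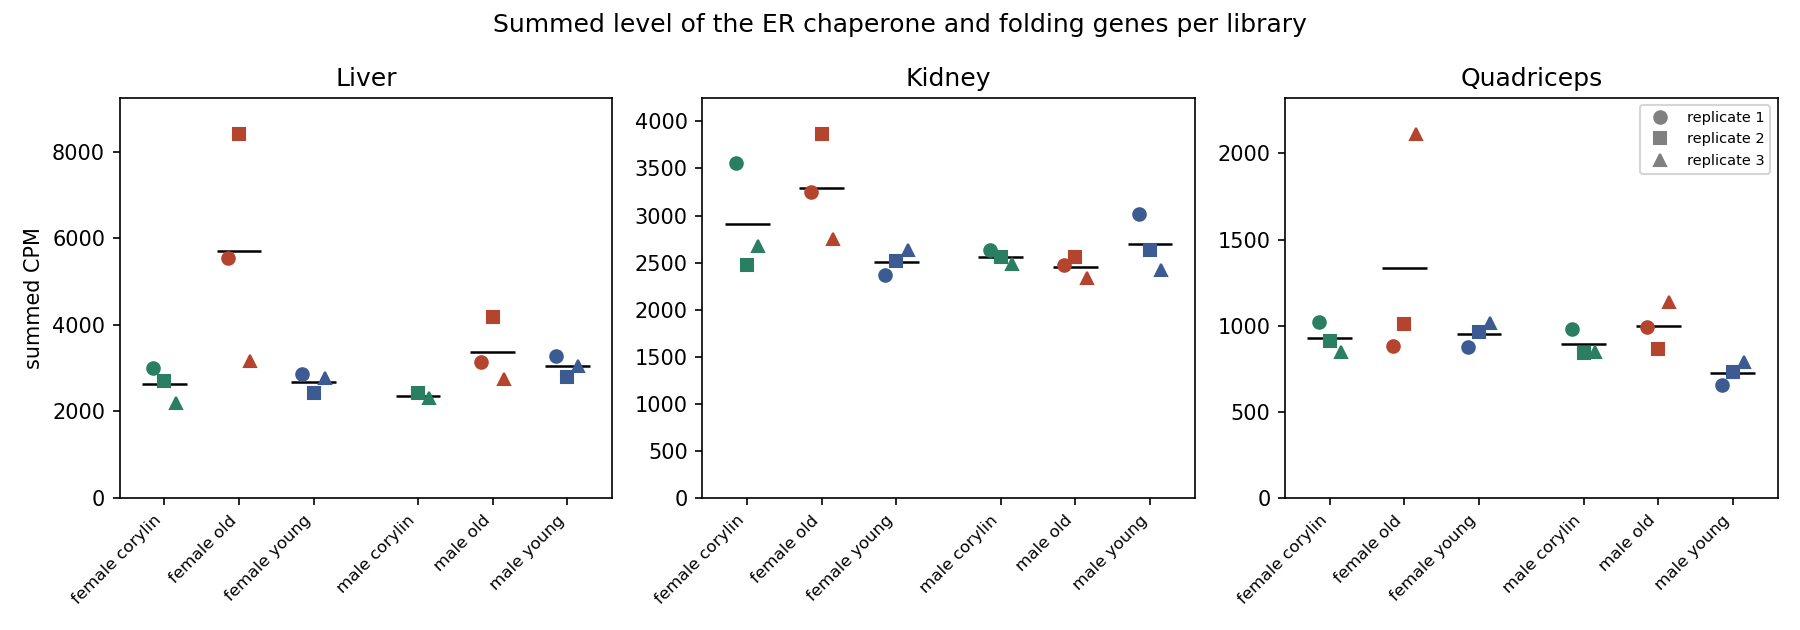
Summed CPM of the 14 ER chaperones and folding enzymes in every library, by tissue, sex and condition, with the group mean as a line and the replicate number as the marker. Old female livers 1 and 2 (5546 and 8398 CPM) and the quadriceps of old female 3 (2110 CPM) stand apart from the other libraries of their tissues.

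Markers of other cells and of inflammation moved in the same livers. The 14 macrophage genes, all detected, summed to 1419, 1624 and 2137 CPM in old and 270 to 407 CPM in young female livers, and 8 of 14 rose. The neutrophil list (10 of 10 detected, 9 tested) summed to 38.7, 178 and 249 CPM in old and 4.35 to 8.56 CPM in young livers, with 8 of 9 higher. The 15 acute-phase genes, which hepatocytes secrete in inflammation, summed to 54385, 96538 and 80396 CPM in old and 20669 to 28635 CPM in young livers, with 11 of 15 higher. Old female 3 had the highest macrophage and neutrophil sums and the lowest chaperone sum of the old females. The part of these markers in the result was not tested, and in bulk tissue more cells of a type and more RNA per cell cannot be told apart.

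In male liver, 0 of 31 members passed for old against young, where 0.211% of all genes were called. At an unadjusted p under 0.05 there were 3 members, DESeq2 called 1, and the members' median was 0.06. The smallest p belonged to Herpud1 at -1.27 ± 0.37 (adjusted p = 0.109), Derl3 at -2.47 ± 0.88 (0.152) and Chac1 at 1.32 ± 0.62 (0.256), all from edgeR. Herpud1 was at 276, 197 and 283 CPM in old males and 467, 668 and 684 CPM in young males, without overlap. Derl3 was low, at 0.374, 1.83 and 0.513 CPM in old males and 12, 2.57 and 0.581 CPM in young males. Its groups overlapped, and young male 1 was far above the other males. Chaperone sums were 3137, 4189 and 2761 CPM in old and 3275, 2800 and 3044 CPM in young male livers, with old male 2 the highest. In old males 1, 2 and 3, 7, 18 and 4 members lay above all young males, where 28.7%, 31.7% and 32.2% of all genes did, and 6, 4 and 19 lay below all young males, where 30.1%, 32.3% and 34.1% of all genes did.

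Averaged over the sexes, 10 members rose in old liver and 1 fell, at a background of 19.1% of all genes, and the members' median was 0.46. Herpud1 was the 1 that fell, by 1.07 ± 0.26 (adjusted p = 0.0135). Sdf2l1 rose by 1.85 ± 0.36 (adjusted p = 0.00626), Nupr1 by 1.41 ± 0.35 and Manf by 1.24 ± 0.3 (both 0.0146), and these 4 genes passed in all 18 alternatives. Chac1 (1.6 ± 0.43, adjusted p = 0.02), Calr (0.79 ± 0.22, 0.0222), Ddit3 (0.51 ± 0.14, 0.0226) and Hspa5 (0.77 ± 0.24, 0.0352) followed, the last passing in 7 of 18. The count of 11 was 6 without old male 1, old male 2, young female 2 or young male 2, 7 without old female 2, young female 3 or young male 3, and 21 without old female 3.

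A test of the difference between the sexes in the age effect called 0 of 31 members and 0% of all genes in liver. At an unadjusted p under 0.05 there were 15 members, DESeq2 called 3, and the median difference, female minus male, was 0.86 with 29 of 31 positive. The shares of all genes at that unadjusted threshold, in DESeq2 and by sign are not given here. These counts are therefore description only and do not show an effect particular to females. Ddit3 had 1.29 ± 0.28 and Derl3 5.33 ± 1.26 (adjusted p = 0.188 for each), and Pdia6 1.5 ± 0.41 (0.257). The Derl3 value rests on few CPM, with young male livers spread from 0.581 to 12 CPM. Without old female 3 the test called 2 members, and without old female 2 the median was 0.52.

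The effect of the diet was compared at the same age. In female liver 0 of 31 members passed for corylin against old, and 0.152% of all genes did. The members' median was nonetheless -0.90 against 0.03 over all genes, 28 of 31 differences were negative, 25 members had an unadjusted p under 0.05, and DESeq2 called 18. The shares of all genes at that unadjusted threshold and in DESeq2 are not given here. All 14 chaperone differences were negative, with a median of -1.16. Both this comparison and that of old with young rest on the same 3 old female livers, so the values are set side by side only.

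Dnajc3 had 156, 157 and 138 CPM in corylin female livers, against 272, 385 and 214 CPM in old ones, a difference of -0.95 ± 0.19 (adjusted p = 0.0679, edgeR). Pdia3 had 223, 201 and 171 CPM in corylin and 373, 523 and 263 CPM in old livers (-0.96 ± 0.2, adjusted p = 0.0699). Sdf2l1 had 9.56, 7.84 and 6.13 CPM in corylin and 34, 78.6 and 14 CPM in old livers. In these 3 genes the groups did not overlap, and the corylin libraries lay within or close to the young range. Ddit3 was at 8.61, 6.17 and 7.48 CPM in corylin livers, below all old and above all young ones. Without old female 3 the count of calls was 21, with a median of -1.17, and without any other of these libraries it was 0.

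The same livers are given for 4 members outside the chaperone group. Atf5 was at 383, 332 and 257 CPM in corylin female livers and 267, 559 and 307 CPM in old ones, with young ones at 728, 629 and 546 CPM above both. Nupr1 was at 3.74, 2.89 and 3.21 CPM in corylin and 4.25, 3.18 and 5.63 CPM in old livers, again with overlap, and all lay above the young. Chac1 was at 1.2, 1.09 and 2.21 CPM in corylin and 2.79, 7.76 and 6.41 CPM in old livers, with no overlap (-1.91 ± 0.6, adjusted p = 0.144, edgeR). Herpud1 had 203, 351 and 439 CPM in corylin livers and 288, 300 and 396 CPM in old ones.

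In male liver 0 of 31 members passed for corylin against old, with 4 at an unadjusted p under 0.05, 0 called by DESeq2, a median of -0.32 and a background of 0.0594%. Nupr1 had 1.4 ± 0.5 (adjusted p = 0.363), Atf5 -0.84 ± 0.35 (0.43) and Dnajc3 -0.52 ± 0.22 (0.432). The 2 corylin males differed from each other: Nupr1 was at 1.77 and 6.54 CPM and Atf5 at 510 and 226 CPM in replicates 2 and 3, against 1.31 to 1.97 CPM and 529 to 798 CPM in old males. The macrophage sum was 315 CPM in corylin male 2 and 4668 CPM in corylin male 3, with 930 to 2082 CPM in old males, and its part in these values was not tested. Without corylin male 2 the count was 2.

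Averaged over the sexes, Dnajc3 was the 1 member that fell with corylin, by 0.73 ± 0.15 (adjusted p = 0.0307, edgeR), at a background of 1.07%. It was at 163 and 128 CPM in corylin males and 216, 232 and 177 CPM in old males, so the groups were apart in each sex. It passed in 9 of 17 alternatives (adjusted p 0.000129 to 0.135), not without corylin female 2 or 3, corylin male 3, old female 2, or old male 1 or 2. The members' median was -0.63, 21 had an unadjusted p under 0.05, and DESeq2 called 15. Hspa5 stood at -1.07 ± 0.26 (adjusted p = 0.0577) and Pdia3 at -0.64 (0.0597). Without old female 3 the count was 17, and without corylin male 2 it was 8.

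**Figure D4:**
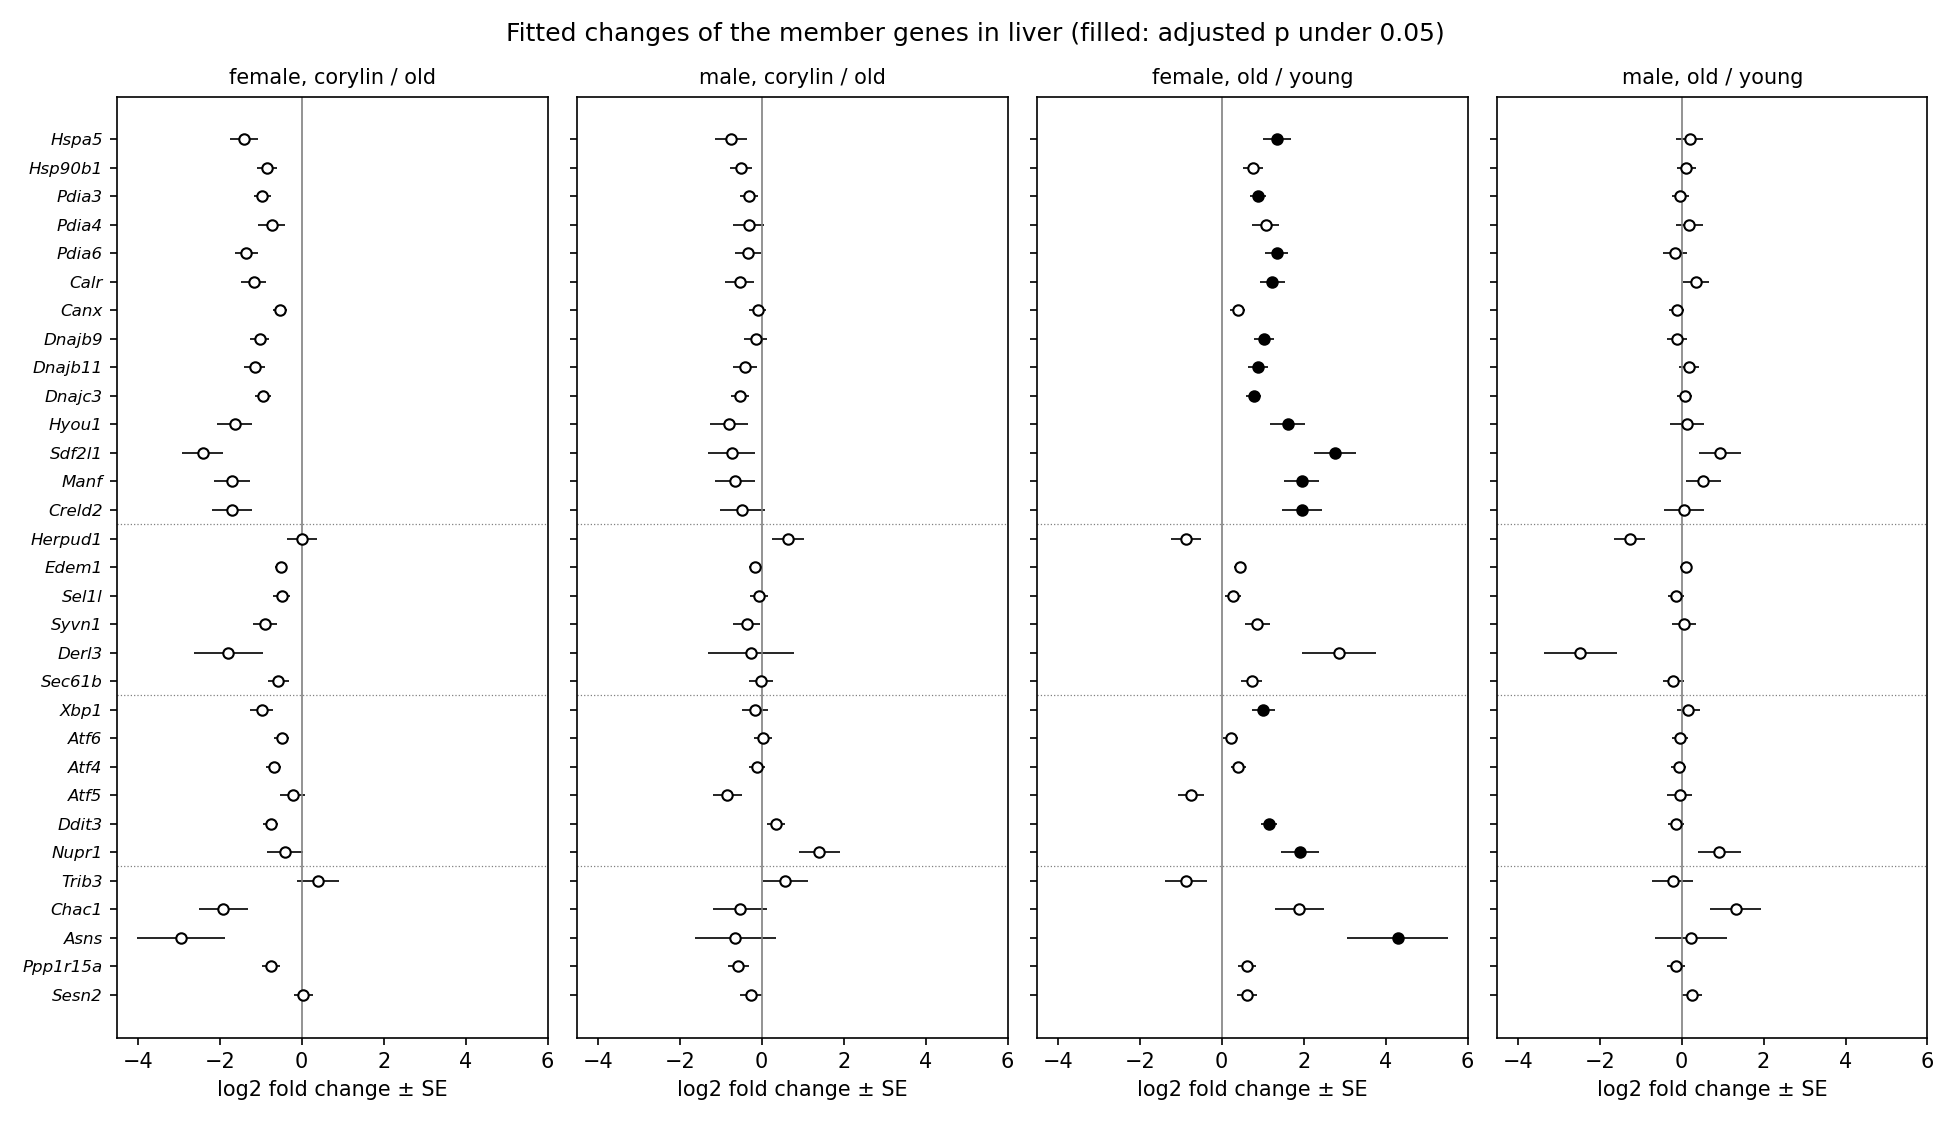
Log2 fold change ± SE of each member in liver, in 4 panels: corylin over old in females and males, and old over young in females and males, with filled points where adjusted p was under 0.05. In females the chaperones lie right of 0 for old over young (median 1.15) and left of 0 for corylin over old (median -1.16), and in the corylin panels no point is filled.

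The corylin effect was not called as different between the sexes for any member in liver (0 of 31 members and 0% of all genes, 7 members at an unadjusted p under 0.05, 0 by DESeq2, median female minus male -0.63, or -0.32 without old female 2), and 1 member was called without corylin male 2. Acute-phase sums were 34815, 31351 and 21279 CPM in corylin female livers, below all old ones, and 6 of 15 acute-phase genes fell with corylin averaged over the sexes. Macrophage sums of 1417 to 1898 CPM in corylin females overlapped those of old females. Of the 14 clock genes, 2 rose (Per3 2.58 and Tef 1.14) and 2 fell (Nfil3 -2.13 and Arntl -1.75) with corylin averaged over the sexes. By sex, Per3 (4.32) and Arntl (-3.09) passed in males, and no clock gene passed in females. Median Arntl was 2.19 CPM in corylin and 18.7 CPM in old males, against 1.35 and 1.65 CPM in females. Clock sums mix genes that rose with genes that fell. They were 754 to 1009 CPM in corylin and 626 to 797 CPM in old female livers. In male livers they were 704 and 1138 CPM in corylin and 403 to 485 CPM in old mice. Clock genes passed in other comparisons as well. For old against young females they were Nfil3 (1.79) and Clock (-0.61) in liver, and Cry1 (1.63) and Nr1d1 (-1.2) in kidney. For corylin against old in male kidney they were Nfil3 (-2.02), Dbp (3.67), Per3 (2.13) and Bhlhe41 (1.69). The part of clock genes in the members' values was not tested in any comparison.

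In kidney, 8 of 31 members rose in old females relative to young females and 0 fell, at a background of 10.8% of all genes. The members' median was 0.42. By role, 4 of 14 chaperones (Hyou1, Manf, Sdf2l1 and Hspa5), 0 of 6 degradation genes, 2 of 6 regulators (Xbp1 and Atf5) and 2 of 5 targets (Chac1 and Asns) passed.

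Chac1 had 2.37, 3.08 and 2.39 CPM in old female kidneys, against 0.581, 1.05 and 0.982 CPM in young ones. Xbp1, the transcription factor whose mRNA IRE1 splices, had 348, 371 and 191 CPM in old and 145, 185 and 149 CPM in young kidneys. Both genes were without overlap, with old female 3 close to the young for Xbp1 only. Chac1 changed by 1.57 ± 0.32 (adjusted p = 0.00425, edgeR), passing in 12 of 12 alternatives (adjusted p 0.000402 to 0.0385). Xbp1 changed by 0.92 ± 0.2 (adjusted p = 0.00588), passing in 11 of 12 (adjusted p 0.000171 to 0.1) and in all 6 fits that left out 1 library.

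Asns was at 11.3, 19.6 and 8.06 CPM in old female kidneys and 5.94, 6.53 and 5.78 CPM in young ones. Hyou1 was at 146, 120 and 116 CPM in old and 85.5, 91.4 and 98 CPM in young ones. Neither overlapped, and the young animals were closely grouped. Asns changed by 1.09 ± 0.27 (adjusted p = 0.013) and Hyou1 by 0.47 ± 0.13 (0.0265). Asns did not pass without old female 2 or young female 3, and Hyou1 not without old female 1 or any of the young females. Manf (0.96 ± 0.27), Sdf2l1 (1.28 ± 0.39), Atf5 (0.74 ± 0.23) and Hspa5 (0.53 ± 0.16) followed, with adjusted p of 0.0329, 0.042, 0.0459 and 0.0482.

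The kidney count was 5 without old female 1, 4 without old female 2 (median 0.28) and 14 without old female 3, and 3, 4 and 2 without young females 1, 2 and 3. Those with the highest mean CPM of each role that did not pass were Calr (640, 802 and 486 CPM in old, 439, 434 and 493 CPM in young), Herpud1, Atf4 (133, 150 and 118 CPM in old, 124, 124 and 122 CPM in young) and Sesn2 (59.2, 50.7 and 60.7 CPM in old, 65, 65.5 and 73.1 CPM in young). Markers moved here as well: the 8 injury genes summed to 10984, 7103 and 4014 CPM in old and 1728 to 2073 CPM in young female kidneys, and all 8 rose. The macrophage list (14 of 14 detected, 11 tested) summed to 943, 808 and 1102 CPM in old and 175 to 281 CPM in young ones, with 10 of 11 higher. Plasma and B cell sums were 2972, 1343 and 906 CPM in old and 737 to 984 CPM in young ones, and the kidney of old female 2 had adipocyte markers at 519 CPM with Adipoq at 27.5 CPM. Their part in the result was not tested.

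In male kidney 0 of 31 passed for old against young (background 0.111%, 1 at an unadjusted p under 0.05, 0 by DESeq2, median 0.03), with Asns at 0.68 ± 0.28 (adjusted p = 0.361), Pdia3 at -0.35 (0.537) and Nupr1 at 0.69 (0.591). Asns was at 6, 7.06 and 4.69 CPM in old male kidneys and 3.98, 3.58 and 3.52 CPM in young ones, also without overlap. Averaged over the sexes, 3 members rose at a background of 8.86%: Asns by 0.89 ± 0.19 (adjusted p = 0.00684), Xbp1 by 0.59 ± 0.14 (0.0125) and Chac1 by 0.81 ± 0.23 (0.0358). Asns and Xbp1 passed in all 18 alternatives and Chac1 in 9, and the count was 5 without old female 3. The age effect was not called as different between the sexes for any member (0 of 31 against 0.0932% of all genes, 12 at an unadjusted p under 0.05, 0 by DESeq2, median female minus male 0.42). Chac1 came nearest in edgeR, at 1.51 ± 0.46 (adjusted p = 0.171), and 1 member passed without old female 3.

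Corylin and old kidneys were close. In females 0 of 31 members passed (background 0.0582%, 2 at an unadjusted p under 0.05, 0 by DESeq2, median -0.09, or -0.23 without corylin female 1). Xbp1 was at 239, 202 and 185 CPM in corylin and 348, 371 and 191 CPM in old female kidneys (-0.54 ± 0.2, adjusted p = 0.284), Manf had -0.66 ± 0.27 (0.349) and Dnajb11 -0.3 (0.438). Chac1 was at 2.15, 2 and 2.12 CPM and Asns at 14.5, 13.4 and 9.06 CPM in corylin female kidneys, above all young ones for both. Of the 8 members that rose with age in females, the corylin differences ran from -0.66 (Manf) to 0.02 (Hyou1), against the same old kidneys. The signs of the small ones were not stable: with 1 library left out at a time, Hyou1 ran from -0.12 to 0.13 and Asns, at -0.08, from -0.32 to 0.35. The injury list summed to 7265, 3086 and 2690 CPM in these corylin kidneys.

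In male kidney, corylin against old also gave 0 of 31 (background 0.0699%, 4 at an unadjusted p under 0.05, median -0.01), with Ppp1r15a at -0.28 (adjusted p = 0.602), Sesn2 at -0.35 (0.654) and Atf6, a sensor of unfolded proteins, at -0.23 (0.678). Over both sexes it gave 0 of 31 (background 0.0641%, 1 at an unadjusted p under 0.05, median -0.06). Xbp1 passed in females without old female 3, the 1 member to do so. The sexes did not differ in the corylin effect for any member in edgeR (0 of 31 against 0.00582%, 3 at an unadjusted p under 0.05, median -0.15, or -0.34 without corylin female 1). DESeq2 called 0 members in each of these 3 kidney tests.

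Young mice already differed by sex in Sesn2. It was at 65, 65.5 and 73.1 CPM in young female kidneys, against 121, 126 and 141 CPM in young male kidneys. The groups lay far apart, and the difference of -0.93 ± 0.14 (adjusted p = 0.000581, edgeR) made Sesn2 the 1 member called, at a background of 6.25%. In aged kidneys Sesn2 was at 59.4 to 67.9 CPM in corylin and 50.7 to 60.7 CPM in old females, against 87.4 to 135 CPM in corylin and 126 to 162 CPM in old males. In young liver 0 of 31 members passed (background 1.28%, 4 at an unadjusted p under 0.05, 2 by DESeq2), although Asns was at 0.146, 0.151 and 0.252 CPM in young females and 6.99, 7.72 and 4.48 CPM in young males (-5.03 ± 1.23, adjusted p = 0.0697). In young quadriceps 0 of 30 passed (background 1.2%, 6 at an unadjusted p under 0.05, 3 by DESeq2), with Trib3, a pseudokinase that restrains ATF4, at 1.23 ± 0.31 (adjusted p = 0.0645).

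In quadriceps, 3 of 30 members rose in old females relative to young females, at a background of 6.67%, with a median of 0.51. Sdf2l1 was at 2.2, 2.09 and 11.7 CPM in old and 1.25, 1.08 and 1.06 CPM in young female muscle. Creld2 was at 3.91, 3.07 and 8.17 CPM in old and 2.09, 2.54 and 2.47 CPM in young muscle. In both, old female 3 was far above the other old animals, which themselves lay above the young. Manf, at 7.27, 10.4 and 27.1 CPM in old and 6.08, 6.75 and 6.82 CPM in young muscle, was also highest in old female 3, with all old libraries above all young ones. The differences were 2.24 ± 0.52, 1.1 ± 0.3 and 1.19 ± 0.33, with adjusted p of 0.0283, 0.0436 and 0.0446 in edgeR.

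These 3 calls depended on single libraries. Without old female 3, the R animal of the group, the count was 0 and the members' median 0.14. The count was also 0 without any of the 3 young females, and it was 12 without old female 1 and 7 without old female 2. Hspa5 was at 659 CPM in old female 3, against 243 and 268 CPM in the other old females and 247, 287 and 297 CPM in young ones. The library of old female 3 also held a macrophage sum of 1128 CPM and a neutrophil sum of 159 CPM, where all other quadriceps libraries had 38.1 to 137 and 0.177 to 8.11 CPM. In it the macrophage marker Adgre1 and the neutrophil marker S100a8 stood at 32.9 and 35.6 CPM, and the 8 skeletal muscle genes, at 86347 CPM, gave the lowest muscle sum of the tissue. The part of these cells in the result was not tested.

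In male quadriceps 0 of 30 members passed for old against young, and 0% of all genes did. There were 6 members at an unadjusted p under 0.05, DESeq2 called 3, and the median was 0.33. Edem1, a lectin-like factor that steers misfolded glycoproteins to degradation, was at 12.2, 22.9 and 28.8 CPM in old males, against 6.96, 7.07 and 4.35 CPM in young males. The groups did not overlap, and the difference was 1.8 ± 0.43 (adjusted p = 0.083). Dnajb9 had 0.91 ± 0.27 (0.124) and Xbp1 0.76 ± 0.23 (0.125).

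Averaged over the sexes, 3 members rose in old muscle at a background of 3.59%, with a median of 0.48. Edem1 rose by 1.51 ± 0.29 (adjusted p = 0.0247), Xbp1 by 0.65 ± 0.16 (0.04) and Manf by 0.9 ± 0.23 (0.0473). In females Edem1 was at 11.2, 35.6 and 50.4 CPM in old and 10.5, 14.1 and 17.2 CPM in young muscle, so old female 1 lay inside the young range. Edem1 passed in 10 of 18 alternatives, Xbp1 in 6 and Manf in 5. The count was 15 without old female 1, 1 without young female 2 and 0 without old male 2, old male 3, young female 1 or any of the 3 young males. Chac1, the target with the highest mean CPM in this tissue, did not pass, with 229, 227 and 62.1 CPM in old and 88.5, 113 and 95.7 CPM in young females.

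Corylin against old in quadriceps gave 0 calls in females (12 at an unadjusted p under 0.05, 2 by DESeq2, median -0.43), males (3 at an unadjusted p under 0.05, 0 by DESeq2, median -0.09) and both (7 at an unadjusted p under 0.05, 0 by DESeq2, median -0.27), and 0% of all genes in each. In females Sdf2l1 was at 1.4, 1.39 and 1.17 CPM in corylin muscle, below all 3 old libraries, with -2.01 ± 0.51 (adjusted p = 0.119), and Manf and Creld2 had -1.28 (0.119) and -0.99 (0.128). Without old female 3 the female median was -0.08, and the count was 8 without old female 1 and 5 without old female 2. In males Ddit3 had 4.25, 8.29 and 9.87 CPM in corylin and 3.27, 3.67 and 3.86 CPM in old muscle (1.05 ± 0.36, adjusted p = 0.415), Chac1 -0.93 (0.481) and Edem1 -0.92 (0.495). Over both sexes, Manf (-0.84), Sdf2l1 (-1.19) and Edem1 (-0.96) came first, each with adjusted p of 0.616. Without old female 1, Edem1 passed there.

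The sexes did not differ by edgeR in the age effect for any member in quadriceps (0 of 30 against 0.226% of all genes, 6 at an unadjusted p under 0.05, 0 by DESeq2, median 0.02). The same held for the corylin effect (0 of 30 against 0%, 5 at an unadjusted p under 0.05, 1 by DESeq2, median -0.33, or 0.05 without old female 3). There Ddit3 had -1.95 ± 0.51, female minus male (adjusted p = 0.115). In each of these tests 1 member passed without old female 2.

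Each old female gave all 3 tissues, and the order of the tissues was not the same in each animal. In old female 1 the median difference of the members from the young mean was 0.93 (liver), 0.35 (kidney) and 0.01 (quadriceps), and it was 1.36, 0.76 and 0.25 in old female 2. In old female 3 it was 0.22 in liver and 0.20 in kidney but 0.92 in quadriceps. Quadriceps thus had the lowest of the 3 medians in old females 1 and 2 and the highest in old female 3. Old female 3 is also the R animal of these 3, so animal and letter cannot be told apart here.

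Differences between tissues were tested with the animal as a block over 18970 genes. For the age effect in females, liver minus kidney called 1 member at a background of 1.52%: Atf5, with -1.53 ± 0.36 (adjusted p = 0.0232, edgeR), had a difference of -0.75 in liver and 0.74 in kidney. Liver minus quadriceps called 0 of 31 (background 1.85%, 6 at an unadjusted p under 0.05) and kidney minus quadriceps 0 (0.343%, 1 at an unadjusted p under 0.05). At that unadjusted p, liver minus kidney held 10 members and 2491 of all 18970 genes. For liver and for kidney minus quadriceps, 2734 and 1921 of all genes had such a p. The median over the members was 0.66 for liver minus kidney, 0.47 for liver minus quadriceps and -0.19 for kidney minus quadriceps. DESeq2 called 3 members for liver minus kidney and 0 for each of the other 2.

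For the corylin effect in females the 3 tissue contrasts called 0 members, at backgrounds of 0.0896% for liver minus kidney, 1.04% for liver minus quadriceps and 0.00527% for kidney minus quadriceps. The counts at an unadjusted p under 0.05 were 18, 8 and 1, those of DESeq2 1, 2 and 0, and the medians -0.76, -0.39 and 0.33. Over all 18970 genes the unadjusted counts were 1802, 2989 and 1511. In males the age effect gave 0 calls in all 3, at backgrounds of 0.0685%, 1.28% and 0%, with 2, 6 and 3 members at an unadjusted p under 0.05 and 0, 2 and 1 by DESeq2. Edem1, liver minus quadriceps, was nearest at -1.60 (adjusted p = 0.0526). The male corylin effect gave 0 calls at backgrounds of 0.0211%, 0.0685% and 0.00527%, with 1, 1 and 0 at an unadjusted p under 0.05 and 0 by DESeq2. Over all genes the unadjusted counts in males were 1358, 2833 and 1897 for age and 1060, 1375 and 1307 for corylin.

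Other genes of the pathway, taken from lists of sensors, ATF4 targets, folding enzymes and degradation and translocation factors, were counted in the same tests. In old female liver 17 of 96 rose and 2 fell, where 9.27% of all genes were called, with a median of 0.33: 6 of 18 folding enzymes and 7 of 37 degradation and translocation genes rose, against 2 of 14 sensors and processing genes and 2 of 27 further ATF4 targets. Pdia5, a disulfide isomerase, was at 61.7 ± 10.6 CPM in old and 22.0 ± 5.79 CPM in young female livers (SD, n = 3 each), a change of 1.49 ± 0.27 (adjusted p = 0.00894, edgeR). Selenos, a selenoprotein of the degradation complex, changed by 0.68 ± 0.13 (0.00997) and Txndc11 by 1.49 ± 0.29 (0.0107). Vldlr, a lipoprotein receptor and reported ATF4 target, fell by 3.27 ± 0.62 on the log2 scale (0.0101), at 2.98 ± 3.03 CPM in old and 29.0 ± 5.92 CPM in young livers.

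Selenos was also the 1 pathway gene of the 96 that passed for corylin against old in female liver. It was at 41.3 ± 1.46 CPM in corylin and 75.8 ± 13.2 CPM in old female livers (SD, n = 3 each), ranging from 39.7 to 42.6 and from 63.3 to 89.6, without overlap. It fell by 0.87 ± 0.13 (adjusted p = 0.0319, edgeR). Over both sexes Selenos and Tars (threonyl-tRNA synthetase, -0.91 ± 0.17, adjusted p = 0.0261) fell and Vldlr rose, by 2.1 ± 0.45 (0.0451).

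In old female kidney 10 of 98 pathway genes rose and 1 fell, where 10.8% of all genes were called, and 6 of the 10 were among the 29 further ATF4 targets. Atf3, a transcription factor of the same response, was at 8.57 ± 2.5 CPM in old and 1.96 ± 0.215 CPM in young kidneys (2.12 ± 0.32, adjusted p = 0.00057, edgeR). Gdf15, a stress hormone, was at 14.5 ± 6.42 CPM in old and 5.09 ± 1.7 CPM in young kidneys (1.51 ± 0.36, 0.0118). In old female quadriceps 4 of 94 rose and 1 fell, where 6.67% of all genes were called, with Slc7a5, an amino acid transporter, at 1.64 (0.0305) and Atf3 at 42.2 ± 29.0 CPM in old and 2.68 ± 0.628 CPM in young muscle (3.97 ± 1.1, 0.0441).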

How the data were processed

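Stranded poly(A) libraries of liver, kidney and quadriceps were read in pairs of 150 bp, per the labels' protocols. The submitters' processing notes name fastp 0.20.0, FastQC 0.11.9, HISAT2 2.1.0, featureCounts 2.0.1 and genome build GRCm38 (mm10). The sources used here give neither the strand setting nor the annotation release, so reads of overlapping and antisense genes cannot be told apart. The authors deposited raw counts per gene and library, which all tests start from, and TPM values, which served to compare levels between genes. The authors' own fold changes and p-values were not used.

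Low genes were removed with filterByExpr by group, at a minimum count of 10 and a minimum total of 15. Each tissue had 1 edgeR fit (edgeR 4.0.16, R 4.3.3, robust quasi-likelihood F test, TMM) across its 6 groups. Adjustment was by Benjamini-Hochberg over every gene tested, at a threshold of 0.05. Background shares of all genes refer to that threshold in the main fits. Counts of members under the alternatives below, such as DESeq2 or a library left out, have no such share beside them. Within a tissue, the same holds for counts of members at an unadjusted p, so these counts are description only. Differences between tissues came from 1 fit of all libraries with the animal, read from the library names, as a block. CPM were scaled by TMM, with a prior count of 2 for their logarithms. P-values reflect the variation among these libraries and nothing wider. The fits were run on simulated data with known changes, whose outcome is not given here. These data were drawn as independent libraries from the fitted means and spreads. They therefore cannot show how the calls behave with outlying animals or with the library letter. Alternatives were DESeq2 1.42.0, RLE size factors (through edgeR), no filter on low counts, only the compared groups, the replicate number as a block, the library letter as a term, and each library left out.

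Named members were those past the threshold, up to 8 by adjusted p and with every library's values for the first 4, or the 3 with the smallest p where none passed, plus the member with the highest mean CPM of each role that did not pass; other members named were chosen after their values were seen. Of other pathway genes, up to 4 by adjusted p were named, with Atf3 in quadriceps and the corylin values of Selenos added. The members, lists and rules were chosen with earlier results of these data known. Replicate 1 of corylin male liver was not analysed here. Promoters come from RefSeq (GRCm38.p6) and were searched on both strands.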

Additional observations from a re-analysis of the deposited data

Results flagged for a closer look

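Atf5 was the 1 member of 31 whose age effect in females differed between tissues by a test of the difference itself, at a background of 1.52% of all genes. Liver minus kidney came to -1.53 ± 0.36 (adjusted p = 0.0232, edgeR), with Atf5 lower in old than in young livers by 0.75 on the log2 scale and higher in old than in young kidneys by 0.74. In liver it was at 267, 559 and 307 CPM in old and 728, 629 and 546 CPM in young females, with an overlap, and in kidney at 26.9, 44 and 22.5 CPM in old and 21.5, 21.3 and 13 CPM in young females, without one. The liver effect alone did not pass (adjusted p = 0.128). The kidney effect alone passed (adjusted p = 0.0459, edgeR), but only in 5 of 12 alternatives, and in 1 of the 6 fits with a library left out. In liver the old males, at 650, 798 and 529 CPM, overlapped the young males, at 720, 741 and 586 CPM.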

How the results depend on the processing

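Among the members that passed in a comparison, or had the smallest p where none did, none changed sign under the alternatives run. With 1 library left out, signs did change elsewhere, and the cases given here are not a full list. Examples were Hspa5 in old female quadriceps (-0.11 to 0.74), Sel1l in old liver over both sexes (-0.04 to 0.22) and Dnajb9 in old female kidney (-0.1 to 0.25). For corylin against old in female kidney, Hyou1 (-0.12 to 0.13), Asns (-0.32 to 0.35) and Atf5 (-0.2 to 0.31) did so. Of the comparisons of single members with an alternative, 800 stayed on the same side of the threshold, 231 lost a call and 32 gained one. The 800 include members that were not called in the main fit and so could not lose a call. Calls are therefore less stable than these totals make them look, and 174 of the 231 losses came with 1 library left out. Alternatives in which a called member had no adjusted p were not counted. Counts of calls were less stable: 352 stayed within 1.5 times and 101 moved. With DESeq2 the counts were 20 for old against young liver over both sexes (11 in edgeR), 1 for that of males, 18 and 15 for corylin against old liver in females and over both sexes, 3 for the sex difference of the age effect in liver, and 2 for young females against young males in liver and in kidney. DESeq2 also gave 6 for old against young kidney over both sexes, 6, 3 and 8 for old against young quadriceps in females, in males and over both sexes, 2 for corylin against old in female quadriceps, 1 for the sex difference of that effect, and 3 for young females against young males in quadriceps. Between tissues it gave 3 for the female age effect in liver minus kidney, 1 and 2 for the female corylin effect in liver minus kidney and liver minus quadriceps, and 2 and 1 for the male age effect in liver and in kidney minus quadriceps. Without a filter on low counts the counts were 2 for corylin against old female liver, 4 for old female kidney and 1 for old female quadriceps. With only the compared groups in the fit they were 1 for old male liver, 0 for corylin liver over both sexes, 2 for old female kidney, 6 for old male quadriceps, 0 for old quadriceps in females and over both sexes, 2 for young females against males in each tissue, and 1, 2 and 1 for the male age effect between tissues. With the library letter as a term they were 19 for old liver over both sexes, 7 and 5 for corylin liver in females and over both sexes, and 0 for old quadriceps in females and over both sexes. RLE size factors gave 1 for the male age effect in liver minus quadriceps, and so did the fit with no replicate block.

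The replicate numbers were not treated as pairs in the main fits: over 52 pairs the correlation of same-numbered deviations ran from -0.25 to 0.48, with a median of 0.02. Between corylin and old liver it was 0.3, 0.06 and 0.3 in females and 0.31 and 0.48 in males. Pairs with different numbers were not computed as a reference, so these values do not settle whether the numbers pair samples. With the replicate number as a block the counts were 7 for old liver and 0 for corylin liver over both sexes, 6 for old kidney over both sexes, and 0 and 1 for old quadriceps in females and over both sexes.

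Leaving out each library in turn gave ranges of 1 to 23 for old female liver, 6 to 21 for old liver over both sexes, 0 to 21, 0 to 2 and 0 to 17 for corylin liver in females, males and both, and 0 to 2 and 0 to 1 for the sex differences of the age and corylin effects in liver. In kidney they were 2 to 14 for old females, 2 to 5 for old mice of both sexes, 0 to 1 for corylin females, 0 to 1 for the sex difference of the age effect and 1 to 2 for young females against males. In quadriceps they were 0 to 12, 0 to 1 and 0 to 15 for old mice in females, males and both, 0 to 8 and 0 to 1 for corylin in females and both, and 0 to 1 for each sex difference. Leaving out libraries was not run for differences between tissues. In liver of corylin males it leaves 1 library, which is then assumed to vary like the other groups. The depth limits low members most: Asns, Nupr1, Chac1 and Derl3 in liver and Sdf2l1 in quadriceps rest on few CPM.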

Other observations

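Genes outside the set that carry the same whole ER stress element were looked at in the same tests. Of 28 such genes, 12 were tested in liver. In old female liver 2 rose and 0 fell relative to young female liver, where 9.27% of all genes were called. They were Acacb, an acetyl-CoA carboxylase, by 1.18 (adjusted p = 0.00545) and Ero1b, an oxidase that recharges disulfide isomerases, by 1.14 (adjusted p = 0.0264), both by edgeR. Ero1b is not a separate observation, since it was already counted among the other folding enzymes of the pathway. The median log2 fold change of the 12 was 0.36, with 7 of 12 positive. For corylin against old in female liver 0 passed and the median was -0.24. In kidney 12 were tested, of which 1 rose in old females, where 10.8% of all genes were called. In quadriceps 9 were tested, of which 0 passed.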
